A study of Mus musculus with 9 samples.

Results

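The unfolded protein response and the amino acid stress response were followed in CD4+ T cells of the inflamed colon, through 36 genes chosen by symbol: sensors, transcription factors, their target genes and the chaperones and enzymes of the endoplasmic reticulum (ER). All 36 were found among the 23415 genes of the deposited table, and 35 passed the expression filter of at least 1 TPM in at least 4 libraries, which 11495 genes passed in all. CHAC1 did not pass. TPM is a transcript level corrected for transcript length and library total, so levels of different genes can be set side by side.

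Stress in the ER and in the cytosol is reported through partly shared signals. Misfolded protein in the ER is sensed by EIF2AK3 (also called PERK), ERN1 (IRE1) and ATF6, and a shortage of amino acids in the cytosol is sensed by EIF2AK4 (GCN2). EIF2AK3 and EIF2AK4 both slow translation and favour synthesis of the factor ATF4, which switches on amino acid synthesis, mitochondrial folate enzymes and stress genes. ERN1 splices the mRNA of XBP1 and ATF6 is released by proteolysis, and both then raise chaperones and the machinery of ER-associated degradation. In activated T cells these pathways serve the high demand for protein and cytokine synthesis.

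The libraries were of 2 kinds, 4 of cells that came from CD160 knockout donors and 5 of cells from wildtype littermates, called control. In both, naive CD4+ CD25- CD45RBhigh T cells were injected into Rag1-/- mice, which have no T or B cells of their own, and caused colitis. At the peak of disease 5000 CD4+ cells per sample were sorted from the lamina propria of the colon and sequenced as full-length polyadenylated cDNA. CD160 is a lymphocyte receptor that binds HVEM, and the labels give no age, sex or allele, nor whether each library came from a separate recipient. P-values therefore measure the spread between libraries, which may be technical.

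CD160 itself stood between 5.44 and 18.8 TPM in knockout libraries, against 31.8 to 212.4 TPM in control libraries. An entry for the reporter tdTomato was listed at 0 in all knockout libraries, against 2.52 to 8.78 TPM in control libraries, so a further genetic difference between the groups cannot be told apart from the loss of CD160. Control replicate 1 stood apart: it had 7308 genes at 1 TPM or more, against 11088 to 11711 in the other 8 libraries. Over all tested genes the median log2 difference, knockout minus control, came to 0.46 with this library and to -0.014 when it was left out. Values below come both from all 9 libraries and from the 8 without control replicate 1, and the gene by gene account uses the 8 unless the 9 are named. T cell transcripts were found in every library. The 8 defining markers, among them CD3E, CD4 and LCK, summed to 4000 to 5059 TPM in knockout libraries. They summed to 4874 to 5708 TPM in control replicates 2 to 5 and to 1763 TPM in control replicate 1. In the 8 libraries 0 of 8 were higher on average in knockout. At an unadjusted p under 0.05 in limma 3 of 8 were lower, against 4.41% of all genes, and 0 after adjustment.

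Several of the chaperones hold a promoter sequence that the choice of genes did not use. The ER stress response element (ERSE), bound by ATF6 and NF-Y, is CCAAT, 9 bases and CCACG. In windows from 250 bases before to 50 after the start site (RefSeq, GRCm38.p6), found for 34 of the 36 genes and not for ATF6 and MANF, 7 of 11 chaperone genes held an ERSE on either strand, against 0.119% of 32851 promoters of the table and 0 of 14 ATF4 target genes. The element was first described in promoters of this family, so the count is a description. The windows of PDIA3, PDIA4, DNAJB9 and SDF2L1 held none. The 8 matches are printed below, each read on the strand where the element matches, with 5 flanking bases and the fixed letters in capitals. The capitals are the same in every line because the search required them.
HSPA5, chr2:34772025-34772043, + strand: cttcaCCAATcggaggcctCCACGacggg
HSP90B1, chr10:86705638-86705656, - strand: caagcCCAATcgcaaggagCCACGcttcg
HSP90B1, chr10:86705533-86705551, + strand: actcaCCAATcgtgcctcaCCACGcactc
CALR, chr8:84847075-84847093, + strand: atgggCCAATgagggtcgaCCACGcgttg
CANX, chr11:50325800-50325818, - strand: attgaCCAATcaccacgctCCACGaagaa
PDIA6, chr12:17266491-17266509, + strand: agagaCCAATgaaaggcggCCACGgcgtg
DNAJC3, chr14:118937827-118937845, + strand: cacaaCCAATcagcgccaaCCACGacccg
CRELD2, chr15:88819520-88819538, - strand: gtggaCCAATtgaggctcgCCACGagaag

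A second element, the core TGATGNAA of sites bound by ATF4 together with C/EBP factors (CARE), was found on either strand in 3 of 14 ATF4 target genes (ASNS, CHAC1 and TRIB3) and in HERPUD1, against 3.97% of all promoters. HERPUD1 was the only one of the 34 genes with an ERSE-II (ATTGG, 1 base, CCACG), an element in 0.0365% of all promoters, so its window held an element of each branch. The UPRE core TGACGTGG was in 0 of the 34, against 0.676% of all. None of the chaperone windows held a CARE core and none of the ATF4 target windows an ERSE. With 3.97% of all promoters holding a CARE core, its absence from 11 chaperone windows shows no contrast between the branches. With 0.119% holding an ERSE, its absence from 14 ATF4 target windows is what most promoters show. The difference in ERSE lies in the 7 of 11 chaperone windows that held one. The sites found are printed below.
ASNS, CARE, chr6:7693225-7693232, - strand: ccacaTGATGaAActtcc
CHAC1, CARE, chr2:119351049-119351056, - strand: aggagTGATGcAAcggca
TRIB3, CARE, chr2:152344039-152344046, + strand: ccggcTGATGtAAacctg
HERPUD1, CARE, chr8:94386317-94386324, - strand: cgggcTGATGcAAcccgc
HERPUD1, ERSE-II, chr8:94386377-94386387, + strand: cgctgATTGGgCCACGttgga

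No gene of the response passed the threshold adjusted over all genes. In limma on log2(TPM + 1) 0 of 35 had an adjusted p under 0.05 with 9 libraries, where 0.0174% of all tested genes passed, and 0 of 35 with 8 libraries, where 0.0262% passed. At an unadjusted p under 0.05 there were 0 of 35 with 9 libraries, against 5.78% of all genes higher and 0.618% lower in knockout. With 8 libraries there were 2, XBP1 and MTHFD2, both higher in knockout, against 8.44% of all genes higher and 4.41% lower. These were also the only genes of the response whose knockout and control libraries did not overlap. That is 5.71% of the 35 in each set, against 3.88% of all genes higher without overlap with 9 libraries and 4.01% with 8. In the 8 libraries 0 of 35 were lower without overlap, against 3.01% of all. The share is near that of all genes, so the 2 are described as single genes.

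XBP1, the transcription factor of the IRE1 branch that raises chaperones and ER degradation genes, lies on chromosome 11 (5520641 to 5525993, GRCm38.p6). It stood at 145, 127, 133 and 125.5 TPM across knockout replicates 1 to 4, against 4.85, 85.2, 86.6, 100.3 and 91.0 TPM in control replicates 1 to 5. The lowest knockout library was above the highest control library. Knockout libraries averaged 133 ± 8.90 TPM and control replicates 2 to 5 averaged 90.8 ± 6.81 TPM (SD, n = 4 each). The log2 difference was 0.54 ± 0.084 (SE), a 1.46-fold higher level on the log2(TPM + 1) scale, with an adjusted p of 0.103 in limma and an exact two-sided permutation p of 0.0286, the smallest that 4 against 4 libraries allow. With control replicate 1 the log2 difference was 1.34 ± 0.79 (SE), at an adjusted p of 0.745. The table gives 1 value per gene, so spliced and unspliced XBP1 mRNA were not distinguished.

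MTHFD2, the mitochondrial folate enzyme that feeds carbon units into nucleotide synthesis and is a target of ATF4, lies on chromosome 6 (83305704 to 83326011). It stood at 67.7, 71.8, 55.7 and 48.3 TPM across knockout replicates 1 to 4, against 2.15, 33.5, 34.3, 38.3 and 39.05 TPM in control replicates 1 to 5. Here too the groups did not overlap. Knockout libraries averaged 60.9 ± 10.8 TPM and control replicates 2 to 5 averaged 36.3 ± 2.78 TPM (SD, n = 4 each). The log2 difference was 0.72 ± 0.14 (SE), or 1.64-fold, with an adjusted p of 0.114 in limma and an exact permutation p of 0.0286. With control replicate 1 the log2 difference was 1.43 ± 0.73 (SE), at an adjusted p of 0.745. For XBP1 and MTHFD2 alike the exact permutation p of 0.0286 follows from the lack of overlap. It adds no support of its own.

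The promoters of these 2 genes are printed because their values separate the groups. The MTHFD2 window (chr6:83317555-83317854, - strand) held 3 copies of CCAAT and 2 of CCACG, counted on both strands and set in capitals, but no complete ERSE or CARE, and it lies around a start site inside the annotated span of the gene. The XBP1 window (chr11:5520391-5520690, + strand) held neither. Of all promoters 37.4% held a CCAAT and 32.8% a CCACG, and these short pieces were looked for after the values had been seen.
MTHFD2: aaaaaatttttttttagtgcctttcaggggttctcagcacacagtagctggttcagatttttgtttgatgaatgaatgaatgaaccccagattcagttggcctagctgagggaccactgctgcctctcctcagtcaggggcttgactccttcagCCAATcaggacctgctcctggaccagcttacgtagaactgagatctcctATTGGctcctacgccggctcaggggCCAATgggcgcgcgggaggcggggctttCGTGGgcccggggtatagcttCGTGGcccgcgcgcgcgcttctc
XBP1: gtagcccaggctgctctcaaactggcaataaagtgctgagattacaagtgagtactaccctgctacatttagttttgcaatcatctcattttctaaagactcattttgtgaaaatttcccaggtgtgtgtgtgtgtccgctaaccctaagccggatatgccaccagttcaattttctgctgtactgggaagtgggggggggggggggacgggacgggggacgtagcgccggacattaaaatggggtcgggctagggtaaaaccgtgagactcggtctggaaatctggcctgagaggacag

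**Figure D1:**
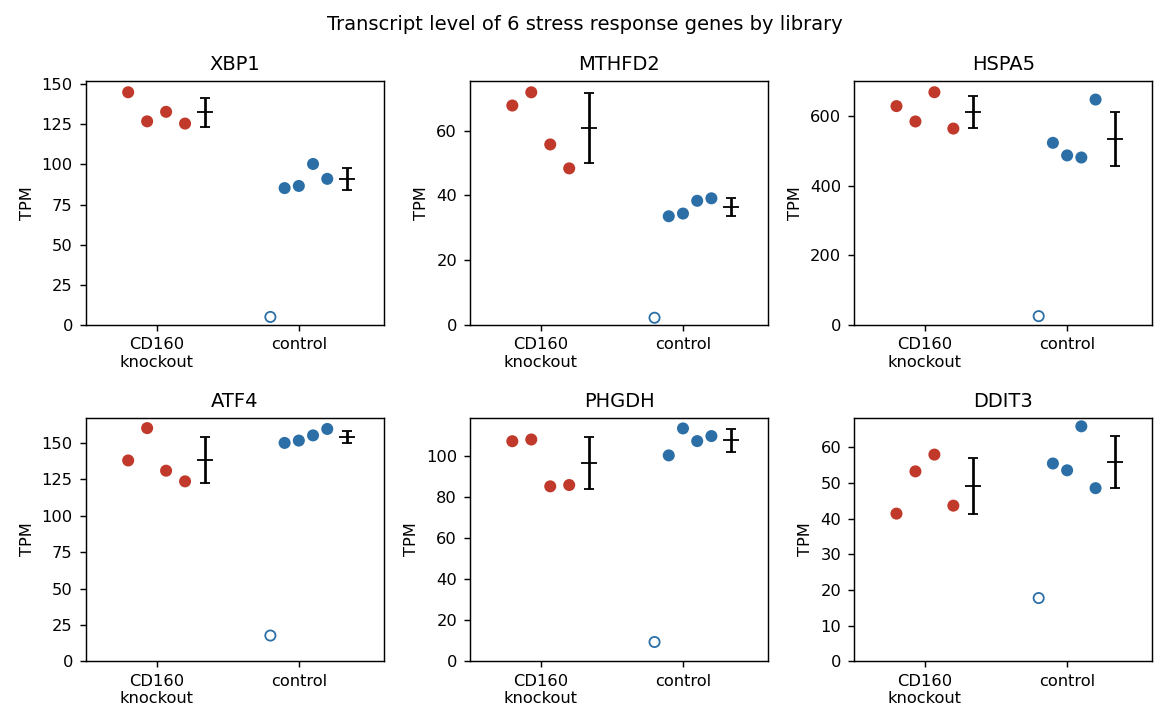
TPM (vertical axis) of XBP1, MTHFD2, HSPA5, ATF4, PHGDH and DDIT3 in each knockout (red) and control (blue) library; the open circle is control replicate 1, and the bars show mean and SD of the 4 knockout libraries and of control replicates 2 to 5. XBP1 and MTHFD2 separate the groups, with all knockout libraries at 125.5 TPM or more and 48.3 TPM or more, and the other 4 genes overlap.

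Transcripts that mark other cells were present, and those of macrophages differed in level between the groups. The 11 macrophage markers, among them LYZ2 and C1QA, summed to 8551 to 15294 TPM in knockout libraries, against 2363 to 9442.5 TPM in control replicates 2 to 5, with all 11 higher on average in knockout, 9 of them at an unadjusted p under 0.05 and 0 after adjustment in limma. In a bulk library more cells of a type cannot be told apart from more RNA per cell. Control replicate 2, with 9442.5 TPM of macrophage markers, lay inside the knockout range. Its XBP1 and MTHFD2 stood at 85.2 and 33.5 TPM, below every knockout library. This library was also the lowest of the 8 over the response. Its mean log2(TPM + 1) of the 35 tested genes was 5.08, against 5.24 to 5.43 in the others. The mean of the macrophage markers was also used as a covariate, an addition made after seeing the data. This mean log2(TPM + 1) was 7.24, 7.93, 8.64 and 8.68 in knockout replicates 1 to 4. It was 7.64, 6.19, 7.22 and 5.97 in control replicates 2 to 5. The covariate thus varies with the group, and a fit of 8 libraries cannot fully tell marker level and group apart. With the covariate the 8 libraries gave log2 differences of 0.59 for XBP1 and 0.93 for MTHFD2. Their adjusted p values in limma were 0.315 and 0.298. The median over the 35 genes was 0.26 with the covariate and 0.079 without it, against 0.085 and -0.014 over all tested genes. SHMT1 (1.02), ASNS (0.88), ERN1 (0.76), SEL1L (0.71) and DDIT4 (0.69) then also lay above XBP1. Of the markers of plasma cells, which use XBP1 heavily, and B cells, MZB1, MS4A1 and PAX5 were listed at 0 in all 9 libraries and JCHAIN reached at most 0.13 TPM. The 11 markers summed to 28.03 to 31.6 TPM in knockout libraries and 18.04 to 22.9 TPM in control replicates 2 to 5, without overlap, and 3 of the 4 that passed the filter were higher on average in knockout, with a median log2 difference of 0.86. SDC1 stood at 1.97 to 11.8 TPM in knockout libraries, above the 0.73 to 1.85 TPM of control replicates 2 to 5. TNFRSF17 averaged 2.41 TPM in knockout libraries and 0.77 TPM in control replicates 2 to 5, and CD79B 9.04 and 4.04 TPM. PRDM1, which T cells also express, was lower in knockout libraries, at a mean of 12.2 TPM against 14.3 TPM in control replicates 2 to 5. In knockout libraries dendritic cell markers summed to 31.1 to 59.4 TPM, epithelial markers to 114.7 to 174.4 TPM and stromal markers to 68.8 to 388.4 TPM. In control replicates 2 to 5 the same sums were 25.3 to 46.05 TPM, 82.0 to 168 TPM and 73.3 to 159.5 TPM. The part of these cells in the results was not tested.

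**Figure D2:**
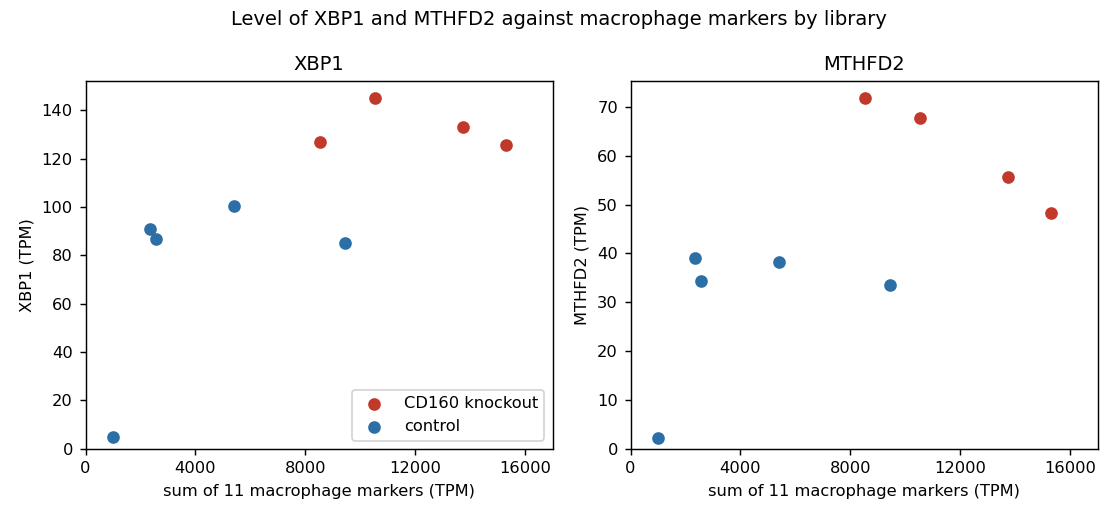
XBP1 (left) and MTHFD2 (right) in TPM against the summed TPM of 11 macrophage markers in each library, knockout in red and control in blue. Control replicate 2, at 9442.5 TPM of markers, lies among the knockout libraries on the horizontal axis and below them on the vertical one. After control replicate 1 it also had the lowest mean level over the 35 tested genes.

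The sensors of the response were low and did not separate the groups. EIF2AK3 ranged from 2.66 to 4.11 TPM in knockout libraries and from 3.11 to 5.73 TPM in control replicates 2 to 5, with a log2 difference of -0.27 ± 0.20 (SE). EIF2AK4 and ERN1 had log2 differences of -0.12 and 0.084 with standard errors of 0.25 and 0.28. ATF6, the most abundant sensor, stood at 10.95, 13.2, 12.6 and 11.2 TPM across knockout replicates 1 to 4, against 0.58, 7.79, 11.6, 11.96 and 9.87 TPM in control replicates 1 to 5. Its groups overlapped, with a log2 difference of 0.21 ± 0.16 (SE). Control replicate 2 was the lowest of the 8 libraries for 3 of the 4 sensors.

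Unlike XBP1, ATF4 and the other factors had overlapping groups. ATF4 stood at 138, 160.1, 131 and 124 TPM across knockout replicates 1 to 4, against 17.8, 149.9, 152, 155 and 159.5 TPM in control replicates 1 to 5. Knockout replicate 2 lay above every control library and the other 3 below control replicates 2 to 5. The log2 difference was -0.16 ± 0.089 (SE), at an adjusted p of 0.507 in limma, and with control replicate 1 it was 0.45, of the opposite sign. DDIT3 (CHOP), the factor linked to cell death after lasting stress, stood at 41.4, 53.2, 57.9 and 43.6 TPM across knockout replicates 1 to 4, against 17.75, 55.4, 53.5, 65.85 and 48.5 TPM in control replicates 1 to 5. These groups overlapped, with a log2 difference of -0.19 ± 0.14 (SE). ATF5, a related factor, was close to the filter in every library, at 0.46 to 1.43 TPM in knockout libraries and 0.92 to 1.63 TPM in control replicates 2 to 5, a log2 difference of -0.13 ± 0.20 (SE).

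The stress and feedback genes under ATF4 had overlapping groups. PPP1R15A (GADD34), which guides the phosphatase that ends the translation block, was the most abundant, at 138, 179, 172 and 156 TPM across knockout replicates 1 to 4, against 7.04, 180.4, 150.0, 231 and 219 TPM in control replicates 1 to 5. Its log2 difference was -0.26 ± 0.15 (SE). Immediate early and heat shock genes, which respond to tissue dissociation, summed to 4334 to 6497 TPM in knockout libraries and 4386 to 7350 TPM in control replicates 2 to 5. The sum hides differences in both directions. In the 8 libraries 5 of these 14 genes were higher and 9 lower on average in knockout, with log2 differences from -1.72 to 1.08. SESN2 and DDIT4, which restrain mTORC1, had log2 differences of 0.19 and 0.19 with standard errors of 0.14 and 0.26, and the pseudokinase gene TRIB3 -0.038 with 0.24. CHAC1, whose product breaks down glutathione, was listed at 1.13, 0.04, 0 and 0 TPM across knockout replicates 1 to 4 and at 0 in all 5 control libraries.

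Serine synthesis and folate enzymes other than MTHFD2 had overlapping groups. PHGDH, the first enzyme of serine synthesis, is on chromosome 3 at 98313171 to 98339969, 1.48 Mb from CD160, and is the only gene of the response on that chromosome. It stood at 107, 108, 85.4 and 86.0 TPM across knockout replicates 1 to 4, against 9.47, 100.5, 114, 107 and 109.9 TPM in control replicates 1 to 5. The log2 difference was -0.16 ± 0.10 (SE), and 0.51 with control replicate 1. PSAT1 and PSPH, the next steps of the pathway, had log2 differences of -0.060 and 0.024 with standard errors of 0.18 and 0.14. SHMT2 and MTHFD1L, partners of MTHFD2 in mitochondrial folate metabolism, had log2 differences of -0.0025 and 0.0060 with standard errors of 0.12 and 0.28.

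Knockout replicate 3 was low in this group: it was the lowest of the 8 libraries for 4 of the 7 amino acid and mitochondrial folate enzymes and for both cytosolic ones, SHMT1 and MTHFD1. Control replicate 2 was the lowest for the other 3 of the 7. ASNS, asparagine synthetase, stood at 14.0, 10.6, 3.17 and 9.20 TPM across knockout replicates 1 to 4, against 0.33, 6.64, 6.93, 5.96 and 10.7 TPM in control replicates 1 to 5, with a log2 difference of 0.15 ± 0.37 (SE). MTHFD1, the cytosolic folate enzyme, stood at 25.7, 18.7, 14.6 and 23.2 TPM across knockout replicates 1 to 4, against 1.00, 15.4, 23.2, 14.8 and 22.3 TPM in control replicates 1 to 5. Cell cycle genes, 18 in number, summed to 907.4 TPM in knockout replicate 3, the lowest of the 8, against 1241 to 1421 TPM in the other knockout libraries and 1072 to 1609 TPM in control replicates 2 to 5. MTHFD2 did not share this order, since its lowest knockout value was in replicate 4. Over the 8 libraries 17 of the 18 cell cycle genes were lower on average in knockout, with a median log2 difference of -0.13. The share higher was 5.56%, against 47.5% of all tested genes, and 0 of 18 had an unadjusted p under 0.05 in limma. A link of cell cycle genes to these enzymes was not tested. SHMT1 had a log2 difference of 0.032 ± 0.38 (SE), and MTHFD1 0.11 with 0.21.

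The ER chaperones had overlapping groups throughout. Their mean level over the 8 libraries ranged from 40.9 TPM for DNAJB9 to 573.9 TPM for HSPA5, and the coefficient of variation from 4.17% for PDIA3 to 17.7% for DNAJC3. Other genes lay in the same range, such as ATF4 at 9.36%, PHGDH at 10.6% and SHMT2 at 11.4%, and the highest among those tested were TRIB3 at 42.9% and SHMT1 at 46.1%. HSPA5 (BiP), the Hsp70 of the ER that also holds the sensors inactive, lies on chromosome 2 at 34772090 to 34776529. It stood at 629.6, 585, 669.6 and 565 TPM across knockout replicates 1 to 4, against 24.65, 524, 488, 482 and 649 TPM in control replicates 1 to 5. All 4 knockout libraries lay above control replicates 2 to 4 but not all above control replicate 5. Knockout libraries averaged 612 ± 46.7 TPM and control replicates 2 to 5 averaged 535 ± 77.7 TPM (SD, n = 4 each). The log2 difference was 0.20 ± 0.11 (SE), at an adjusted p of 0.486 in limma.

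The other chaperones had small differences. In the 8 libraries 11 of 12 were above 0, with a median of 0.10, where 47.5% of all tested genes were above 0 and their median was -0.014. The largest after HSPA5 were SDF2L1 and DNAJC3, partners of HSPA5, at 0.18 and 0.17 with standard errors of 0.12 and 0.18. MANF, a secreted stress-induced factor, the lectin chaperones CANX and CALR, and the isomerase PDIA6 had 0.13, 0.11, 0.098 and 0.11, with standard errors of 0.10, 0.10, 0.093 and 0.10. The disulfide isomerases PDIA3 and PDIA4 had -0.0059 and 0.036, HSP90B1, the Hsp90 of the ER, 0.068, the HSPA5 co-chaperone DNAJB9 0.079 and the stress-induced ER protein CRELD2 0.017. The 12 genes come from the same libraries and are not independent, and 0 of 12 had an unadjusted p under 0.05 in limma.

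Both genes of ER-associated degradation were higher on average in knockout libraries, within overlapping groups. HERPUD1, which brings substrates to the degradation complex, stood at 110.3, 163, 202 and 144 TPM across knockout replicates 1 to 4, against 6.70, 132, 98.8, 135 and 112 TPM in control replicates 1 to 5. Its log2 difference was 0.35 ± 0.18 (SE), at an adjusted p of 0.480 in limma. With the macrophage covariate it was -0.060, of the opposite sign. SEL1L, the adaptor of the HRD1 ubiquitin ligase, stood at 17.5, 20.5, 19.2 and 16.5 TPM across knockout replicates 1 to 4, against 0.41, 9.51, 18.45, 14.0 and 18.03 TPM in control replicates 1 to 5. Its log2 difference was 0.32 ± 0.20 (SE), and 0.71 with the covariate.

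**Figure D3:**
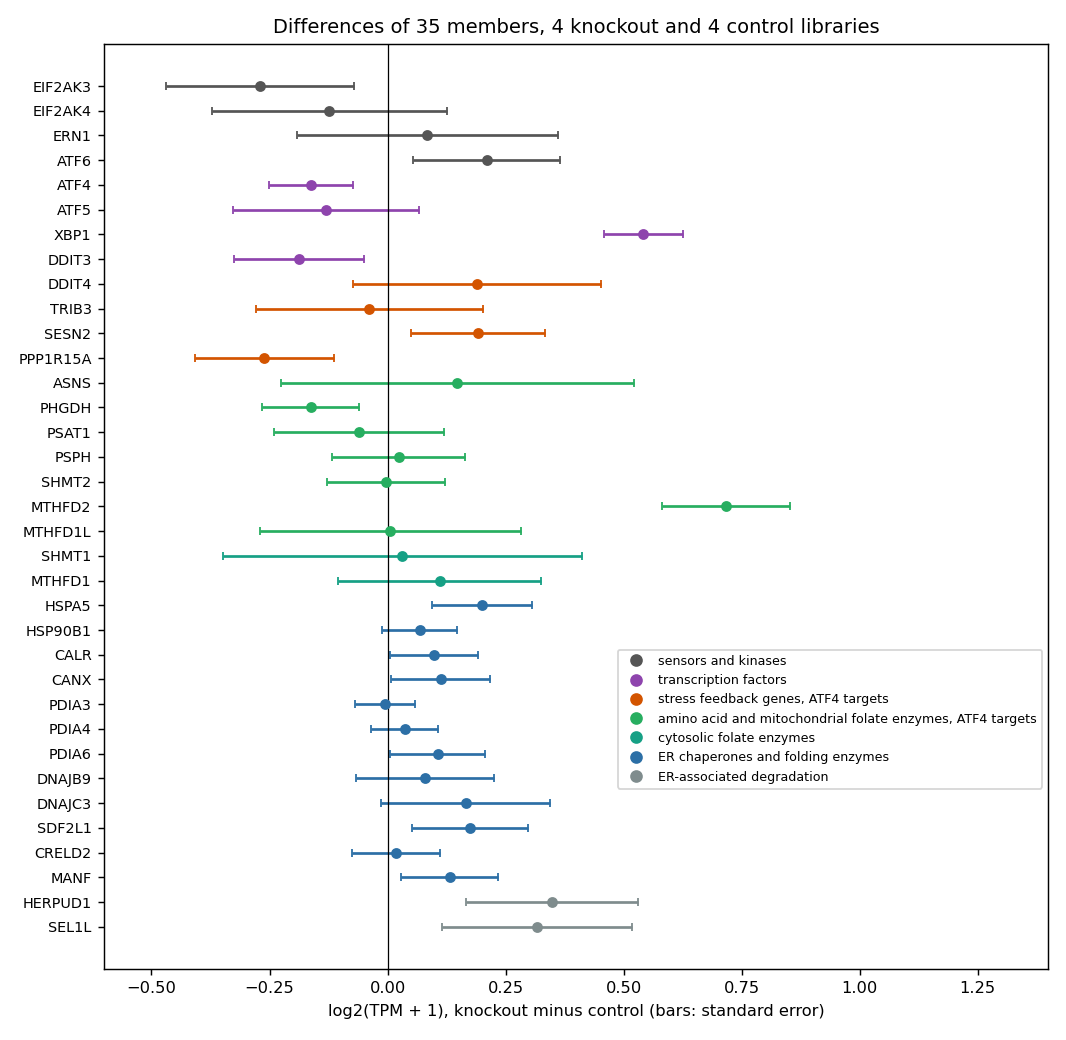
Difference in log2(TPM + 1), knockout minus control (horizontal axis, bars show the standard error) for the 35 tested genes, coloured by role, in the 8 libraries without control replicate 1. XBP1 at 0.54 and MTHFD2 at 0.72 lie apart from the other genes, which range from -0.27 to 0.35.

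The balance of ATF4 targets against ER chaperones differed between the groups by less than the SD of the knockout libraries. It differed by more than the SD of control replicates 2 to 5. The ATF4 target score was the mean log2(TPM + 1) of 13 genes. These were the tested stress and feedback genes, the amino acid and mitochondrial folate enzymes, DDIT3 and ATF5. With CHAC1 they are the 14 ATF4 target genes of the promoter counts. ATF5 and TRIB3 among them are near 1 TPM. The score was 4.45, 4.45, 4.11 and 4.32 in knockout replicates 1 to 4, against 1.80, 4.13, 4.34, 4.26 and 4.46 in control replicates 1 to 5. The ER chaperone score, over 12 genes, was 7.25, 7.26, 7.31 and 7.24 in knockout replicates 1 to 4, against 3.49, 7.08, 7.18, 7.11 and 7.30 in control replicates 1 to 5. The ATF4 scores of the groups overlapped, and on the chaperone score only control replicate 5 reached the knockout range. Without control replicate 1 the knockout minus control difference was 0.033 for the ATF4 targets and 0.099 for the chaperones. The ATF4 score minus the chaperone score averaged -2.93 ± 0.18 in knockout libraries and -2.87 ± 0.052 in control replicates 2 to 5 (SD, n = 4 each), a difference of -0.066. Knockout replicate 3 had the lowest balance of all, at -3.20, with the lowest ATF4 score of the 8 libraries and the highest chaperone score. Without this library too the difference in balance was 0.023, of the opposite sign. With control replicate 1 the differences were 0.53, 0.83 and -0.30, where the median of all genes was 0.46. Of the 13 ATF4 targets 6 had positive log2 differences in the 8 libraries, with a median of -0.0025.

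**Figure D4:**
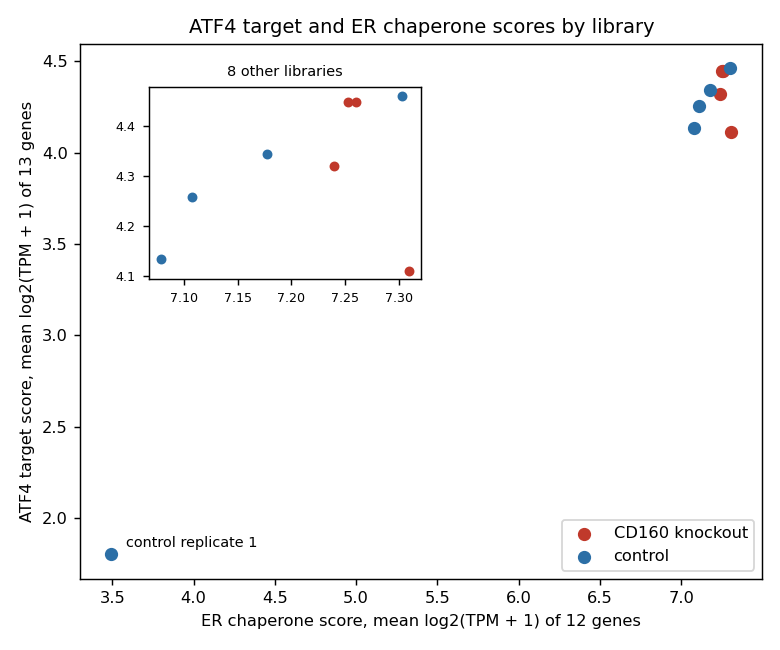
ATF4 target score (vertical axis) against ER chaperone score (horizontal axis), both mean log2(TPM + 1), for each knockout (red) and control (blue) library, with the 8 libraries other than control replicate 1 enlarged in the inset. Control replicate 1 lies at 1.80 and 3.49, and knockout replicate 3 at the lower right of the inset, at 4.11 and 7.31.

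Control replicate 1 was low in nearly the whole response, as in the library at large. It had 7308 genes at 1 TPM or more, against 11088 to 11711 in the other 8 libraries. The share kept over all genes is not given here, so a loss particular to the response cannot be read from these values. Its level was between 1.44% of the mean of control replicates 2 to 5, for DNAJB9, and 51.2%, for ATF5, with a median of 5.62% over 35 genes. It kept more of MANF, DDIT4, CALR and DDIT3, at 39.8%, 38.1%, 31.9% and 31.8%. Across the 35 genes the share kept had a Spearman correlation of -0.464 with the longest annotated transcript of each gene, a description of this library alone. With all 9 libraries 34 of 35 genes had positive differences, as had 86.7% of all tested genes, and the median was 0.68. In the 8 libraries 24 of 35 were positive, against 47.5% of all, with a median of 0.079.

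**Figure D5:**
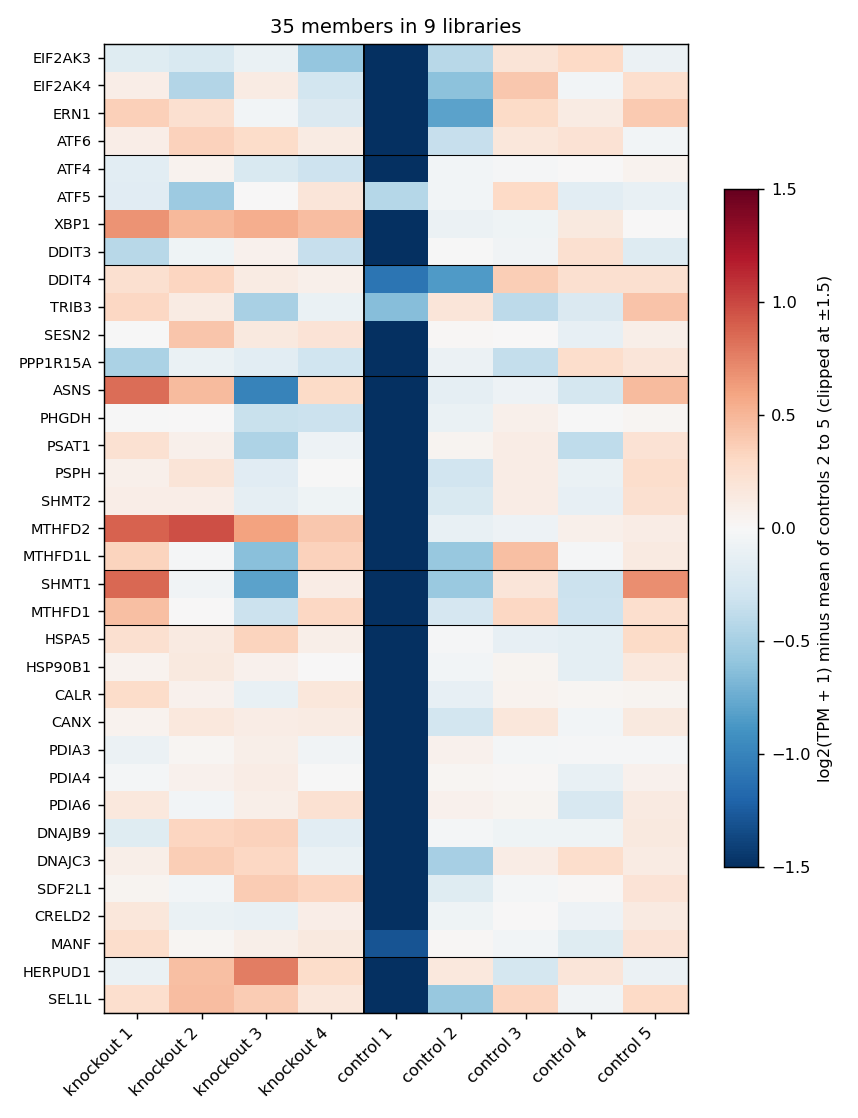
Log2(TPM + 1) of the 35 tested genes (rows, grouped by role) in 4 knockout and 5 control libraries (columns), minus the mean of control replicates 2 to 5 and clipped at 1.5 in either direction. Control replicate 1 is low throughout, XBP1 and MTHFD2 are high in all 4 knockout libraries, and ASNS and SHMT1 are low in knockout replicate 3.

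The wider pathway, 94 further genes in 7 lists, gave 78 tested genes, of which 0 passed in limma with 9 or with 8 libraries. In the 8 libraries 46 were positive and 32 negative with a median of 0.032, and at an unadjusted p under 0.05 there were 7 higher and 2 lower, or 8.97% and 2.56% of the 78, against 8.44% and 4.41% of all tested genes. The tRNA synthetases had 8 of 12 positive, amino acid transporters 3 of 6, further amino acid and stress genes 6 of 7, further folding genes 8 of 12, degradation and translocation genes 13 of 24, initiation factor 2 genes 3 of 11, and stress proteases with CREB3-type factors 5 of 6. The largest difference was that of NUPR1, a stress-induced chromatin-associated protein, at 23.9 to 51.7 TPM in knockout libraries and 6.47 to 17.6 TPM in control replicates 2 to 5. Its log2 difference was 1.43 ± 0.32 (SE), at an adjusted p of 0.141, and 0.72 with the macrophage covariate. GDF15, a cytokine secreted under stress, had 2.75 to 10.3 TPM in knockout libraries against 0.49 to 2.01 TPM in control replicates 2 to 5, a 2.54-fold higher level on the log2(TPM + 1) scale, with an adjusted p of 0.185 in limma, and a log2 difference of 0.95 with the covariate. NUPR1 stood at 25.9 TPM in control replicate 1, inside the knockout range. In the 8 libraries 6 of the 78 genes (7.69%, against 4.01% of all) were higher in knockout without overlap, NUPR1, GDF15, NARS and, named after their values were seen, DERL1, P4HB and SSR3. There were 2 of 78 (2.56%, against 3.01% of all) lower without overlap, SPCS2 and EIF2B3.

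Among folding genes DNAJB11, a partner of HSPA5 in the complex with SDF2L1, ranged from 85.6 to 126 TPM in knockout libraries and from 44.1 to 89.9 TPM in control replicates 2 to 5, with a log2 difference of 0.58 ± 0.23 (SE). ERO1LB, an oxidase that recharges disulfide isomerases, had 0.61 with 0.25. The tRNA synthetase genes NARS and TARS had 0.19 and 0.18, and the transporters SLC3A2 and SLC1A5 0.086 and -0.18. The signal peptidase subunit SPCS2 and the lectin OS9, which selects glycoproteins for degradation, had -0.23 and -0.27. EIF2B3 and EIF2B1, subunits of the exchange factor that the translation block inhibits, had -0.20 and -0.18, and the factors CREB3L1 and CREB3L2 0.34 and -0.14. Adjusted p values of these 12 genes in limma lay at 0.256 or above.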

How the data were processed

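RNA was measured in 9 libraries of sorted colonic CD4+ T cells, 4 knockout and 5 control, grouped and numbered by their titles. The deposited values are TPM, scaled by the authors. Tools listed, without settings, in the submitters' processing notes are RSEM 1.2.31, Bowtie2 2.2.9 and Trimmomatic 0.32, with build GRCm38. TPM keeps no depth, so the depth is unknown and no interval based on counts is given.

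limma 3.58.1 in R 4.3.3 (lmFit, eBayes with an intensity trend) was fitted on log2(TPM + 1) to the genes that reached 1 TPM in 4 or more libraries, with Benjamini-Hochberg adjustment over all tested genes (threshold 0.05). Differences are knockout minus control and understate changes of low genes. Exact two-sided permutation tests ran over 126 splits of 9 libraries (smallest p 0.00794) or 70 of 8 (smallest 0.0286). The fit was tested on simulated data. Scores carry no test. Symbols in capitals are the table's; coordinates and promoters come from RefSeq (GRCm38.p6), transcript lengths from GENCODE M21. Figures used matplotlib 3.10.9 in Python 3.11.15.

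The genes, lists and tests were chosen with earlier results of these data known. Every gene of the response is named. Values in every library are printed for the 4 with the smallest unadjusted p in each fit, the most abundant of each role, ATF4, XBP1, DDIT3, HSPA5 and any on chromosome 3, and, chosen after their values were seen, ASNS and CHAC1. Of each wider list the 2 genes with the smallest unadjusted p are named. Alternatives were other pseudocounts, filters and scaling, a replicate block, robust variance and leaving out each library.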

Additional observations from a re-analysis of the deposited data

Results flagged for a closer look

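Control replicate 1 lay far below the other 4 control libraries, by Dixon's test at the 95% level, for 16 genes of the response. Its levels were 17.8 TPM for ATF4, 4.85 for XBP1, 0.53 for SESN2, 9.47 for PHGDH, 2.15 for MTHFD2, 24.65 for HSPA5, 15.1 for HSP90B1 and 65.0 for CALR. They were 4.97 TPM for CANX, 16.9 for PDIA3, 2.51 for PDIA4, 7.82 for PDIA6, 0.57 for DNAJB9, 16.55 for SDF2L1, 12.3 for CRELD2 and 6.70 for HERPUD1. The same library stood apart on the ATF4 target score, at 1.80, on the ER chaperone score, at 3.49, and on their difference, at -1.69, the highest of the controls. Among the knockout libraries the test marked 1 value, CHAC1 at 1.13 TPM in replicate 1. Chance marks about 1 in 20 groups. The genes marked in control replicate 1 come from 1 library and are not separate observations. No share of all tested genes marked by this test is given here, so the 16 are not read as particular to the response.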

How the results depend on the processing

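In limma 0 of the tested genes of the response passed the adjusted threshold under every alternative run. Over all genes 2 passed, and the count was 3 with a pseudocount of 0.1, 3 with median-of-ratios scaling, 1 with a pseudocount of 5, 0 with no filter, 0 with a filter of 5 TPM, 0 with the replicate block, 4 without control replicate 1 under median-of-ratios scaling, 0 without it under the block, 1 without it under the macrophage covariate, and 0 to 3 when each library was left out. The labels do not say whether the numbers shared by the groups pair the libraries, and no pairing was seen. Same-numbered libraries had correlations of deviations from -0.14 to -0.017 with 9 libraries and from -0.21 to -0.018 with 8. Correlations of differently numbered libraries are not given here, so pairing is not settled. The block left the signs of all 35 differences in place with 9 libraries.

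XBP1 kept a positive log2 difference throughout, from 0.50 to 1.57, and MTHFD2 from 0.70 to 1.63, the lower ends without control replicate 1 under the block. Control replicate 1 set the sign of several others. With each library left out in turn the differences ran from -0.16 to 0.61 for ATF4, -0.13 to 0.094 for ATF5, -0.19 to 0.27 for DDIT3, -0.27 to 0.34 for EIF2AK3, -0.12 to 0.47 for EIF2AK4, -0.0059 to 1.13 for PDIA3, -0.16 to 0.70 for PHGDH, -0.26 to 0.95 for PPP1R15A, -0.060 to 0.91 for PSAT1, -0.0025 to 0.93 for SHMT2 and -0.038 to 0.24 for TRIB3. Each lowest value was that without control replicate 1, and the sign of ATF5 turned without knockout replicate 2. Median-of-ratios scaling of all 9 libraries moved the median of all genes to 0.016 and turned the sign for ATF4 (-0.15), CALR (-0.18), DDIT3 (-0.47), DDIT4 (-0.14), EIF2AK3 (-0.10), MANF (-0.21), PHGDH (-0.075), PSPH (-0.065) and TRIB3 (-0.19). Without control replicate 1 the same scaling gave -0.16 for ATF4, -0.19 for DDIT3, -0.27 for EIF2AK3, -0.11 for EIF2AK4, -0.0027 for PDIA3, -0.16 for PHGDH, -0.26 for PPP1R15A, -0.057 for PSAT1 and -0.040 for TRIB3. The block without it gave -0.15 for ATF4, -0.18 for DDIT3, -0.33 for EIF2AK3, -0.11 for EIF2AK4, -0.060 for MTHFD1L, -0.21 for PHGDH, -0.13 for PPP1R15A, -0.084 for PSAT1, -0.015 for SHMT1 and -0.013 for TRIB3. The macrophage covariate in the 8 libraries gave -0.071 for ATF4, -0.40 for DDIT3, -0.086 for EIF2AK3, -0.060 for HERPUD1, -0.074 for PDIA3 and -0.38 for PPP1R15A. Of these only HERPUD1 was positive in the 8 libraries without the covariate, at 0.35. With it EIF2AK4 (0.32), PHGDH (0.044), PSAT1 (0.30), SHMT2 (0.29) and TRIB3 (0.23) turned from negative to positive. The cause of these turns was not tested beyond the library left out.

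The score differences, untested, depended on several choices. Without control replicate 1 the ATF4 targets had 0.033, against 0.53 with it, the chaperones 0.099 against 0.83, and their balance -0.066 against -0.30. Median-of-ratios scaling of 9 libraries gave 0.095, 0.26 and -0.17, and leaving out knockout replicate 3 gave a balance of -0.15. With each of the 8 libraries left out as well, chosen after seeing the data, the ATF4 targets ran from -0.022 to 0.11, the chaperones from 0.070 to 0.14 and the balance from -0.11 to 0.023, positive only without knockout replicate 3. Values near 1 TPM, such as those of ATF5, TRIB3 and CHAC1, cannot carry a difference, and without counts the depth behind them is unknown.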
